A study of Homo sapiens with 4 samples.

Results

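The metallothioneins and their regulator MTF1 were followed in the glioblastoma cell lines U251 and U87 with and without brusatol (Bru). The members were the genes named MT2A, MT1E, MT1F, MT1G, MT1M, MT1X, MT1A, MT1H, MT3 and MTF1 in the deposited gene tables. They were taken by name with no cut on a measured value, but earlier results of these data were known when they were chosen. These are 10 of the 58735 genes measured, and all 10 names were found. The study sequenced RNA from 4 samples, namely U251 Control, U251 Bru, U87 Control and U87 Bru. Bru is a compound isolated from the plant Brucea javanica, and the treated cells received it at its IC50, while the Control cells did not receive Bru. Whether the Control cells of these libraries received the solvent is not given in the sources used here. Treatment lasted 48 h. There was 1 library per condition, so that no difference within a line could be tested against a spread between cultures.

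Metallothioneins are very short, cysteine-rich proteins that bind zinc and copper, and cadmium when it is present. In human cells most of their genes sit side by side on the long arm of chromosome 16, and they are known for strong induction by metals, glucocorticoids and oxidants. MTF1 is the zinc-sensing transcription factor that binds metal response elements in front of these genes. MT3 is known as the form of the brain, while MT2A and several MT1 genes are made in many cell types.

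Levels are given as FPKM, the fragments per kilobase of gene length, scaled to a library size, and the fragment numbers recovered from them are called reads. That size was 0.978 and 1.04 times the summed reads in U251 Control and Bru, and 0.990 and 1.02 times in U87. With summed reads as the size instead, log2 ratios of Bru to Control rise by 0.087 in U251 and 0.042 in U87. Libraries held from 17083896 to 21453561 reads. Each interval below is an exact 95% Clopper-Pearson interval and covers counting error only. Both lines expressed VIM, a mesenchymal filament gene, and CD44, a surface receptor, at 94.5 FPKM or above in every library. Of 9 glial and neural stem cell markers, 7 reached 1 FPKM in U251 Control, 6 in U251 Bru and 3 in each U87 library. Of all 12949 genes past the filter, 6741 were lower in U251 Bru than in U251 Control. All 6 glial markers past the filter were lower, with a median log2 ratio of -0.90. Beside 5.44% of all genes, 3 of the 6 markers were past 2-fold lower. These were NES, a neural stem cell filament gene, at -1.30, FABP7, a fatty acid binding protein of radial glia, at -1.97, and PTPRZ1, a receptor phosphatase of glial cells, at -2.17. In U87 the median was -0.073, and 1 of the 6, NES, was past 2-fold lower at -1.23, against 1.41% of all genes. PTPRZ1, FABP7 and SOX2 passed the filter through U251 and had at most 2 reads in a U87 library. Their U87 ratios rest on the 0.1 added to each FPKM, so the U87 median is not comparable to that of U251. PTPRZ1 and FABP7 had 4.42 and 8.27 FPKM in U251 Control, against 0.903 and 2.04 in U251 Bru. They passed the filter only through U251 Control, so their lower values in Bru are partly set by it. The same holds for the U251 median and counts that include them. SOX2, a neural stem cell factor, stood at 129 and 91.2 FPKM in U251 and was at 0 reads and 2 reads in U87. Below the filter, GFAP had 614 and 243 reads in U251 Control and Bru, S100B 9 and 0, and OLIG2 2 and 4. In U87 Control and Bru the same genes had 47 and 31, 0 and 0, and 38 and 61 reads. Of 10 markers of other cell types, only KRT18, an epithelial keratin, reached 1 FPKM, and it did so in the U251 libraries alone. The summed level of these 10 markers was 10.2 and 14.8 FPKM in U251 Control and Bru and 2.30 and 1.65 FPKM in U87. The part of these markers in the results below was not tested.

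The promoter windows at hand, those of 4 members, differed in how many matches to the core of the metal response element they held. RefSeq promoter sequences (GRCh38.p14), from 250 bases before to 50 bases after the start, were at hand for 4 members, MT2A, MT1X, MT1H and MTF1. The core of the element was searched on both strands as TGCACNC or TGCGCNC. There were 8 matches for MT2A, 8 for MT1H, 4 for MT1X and 0 for MTF1, and no match shared a base with another match of this motif. Of 35116 promoters of the same length, 29.6% held at least 1 match, 0.601% held 4 or more and 0.0199% held 8 or more. The sequences before MT1X and MT1H are shown because the former gene was read in all libraries and the latter in none. Matches are in capitals, and on the other strand they read as their reverse complement.
MT1X, chr16:56682220-56682423, plus strand: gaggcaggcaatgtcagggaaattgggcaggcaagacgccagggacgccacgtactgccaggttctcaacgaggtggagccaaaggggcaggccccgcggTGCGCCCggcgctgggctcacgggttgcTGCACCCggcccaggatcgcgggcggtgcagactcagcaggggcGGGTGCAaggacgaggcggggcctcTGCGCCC
MT1H, chr16:56669564-56669813, plus strand: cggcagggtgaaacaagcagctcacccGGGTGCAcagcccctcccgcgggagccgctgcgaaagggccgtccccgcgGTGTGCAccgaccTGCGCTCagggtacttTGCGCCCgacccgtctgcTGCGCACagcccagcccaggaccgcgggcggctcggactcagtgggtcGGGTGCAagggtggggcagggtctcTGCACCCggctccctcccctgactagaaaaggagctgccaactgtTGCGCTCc

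For MT2A, the most abundant member, the annotation of the deposited tables starts the gene before the RefSeq start, so that the promoter window lies inside the annotated gene. The 8 matches are therefore shown singly with their flanks. Their first bases lie at positions from -246 to 30, counted from the RefSeq start.
MT2A site 1, chr16:56608334-56608354: ccgcTGCACCCagccccttcc
MT2A site 2, chr16:56608406-56608432: cccgcggcccGTGTGCAgagccgggtg
MT2A site 3, chr16:56608421-56608447: cagagccgggTGCGCCCggcccagtgc
MT2A site 4, chr16:56608435-56608461: cccggcccagTGCGCGCggccgggtgt
MT2A site 5, chr16:56608486-56608512: agcgcggggcGTGTGCAggcagcgccc
MT2A site 6, chr16:56608520-56608546: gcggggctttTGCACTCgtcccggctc
MT2A site 7, chr16:56608566-56608592: cttgccgcgcTGCACTCcaccacgcct
MT2A site 8, chr16:56608604-56608630: cagcgaacccGCGTGCAacctgtcccg
The core of the antioxidant response element, TGACNNNGC on either strand, occurred 1 time each in the windows of MT2A and MT1X and 0 times in those of MT1H and MTF1, against 13.3% of all promoters with at least 1. The TATA box letters TATAAA, searched in the same way, also occurred 1 time each for MT2A and MT1X and 0 times for MT1H and MTF1, against 11.5% of all promoters. These matches describe the letters of the windows only.

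Of the 9 metallothionein members, 4 carried nearly all reads, and the other 5 were at or near 0. All 9 lie on chromosome 16, within a cluster of 16 metallothionein genes and pseudogenes between bases 56565049 and 56684196 (GRCh38), a stretch of 119 kb. In this cluster 8 genes had at least 1 read in some library, 5 had at least 100 reads in a library and 8 had 0 reads in all 4. The member genes MT1A, MT1G and MT1H had 0 reads in every library. A count of 0 allows up to 3 reads, which corresponds to an FPKM of 0.361 to 0.435 for MT1A, 0.191 to 0.230 for MT1G and 0.198 to 0.238 for MT1H. The promoter windows of MT1H and MT2A each held 8 metal response element matches, and TATAAA occurred 0 times for MT1H and 1 time for MT2A. The windows of MT1B and MT4, cluster genes that are no members, held 3 such matches and TATAAA 1 time each. Both genes had 0 reads in all 4 libraries, so that a window with TATAAA also occurred at unread genes. The part of these letters in the levels was not tested. MT3, the brain form, had 2 reads in U251 Bru and 0 in the other 3 libraries. With 5 members past a mean of 1 FPKM over the 4 libraries (MT2A, MT1E, MT1F, MT1X and MTF1), ratios were computed for these 5 among 12949 genes past the same filter. A member can pass it through U87 alone.

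**Figure D1:**
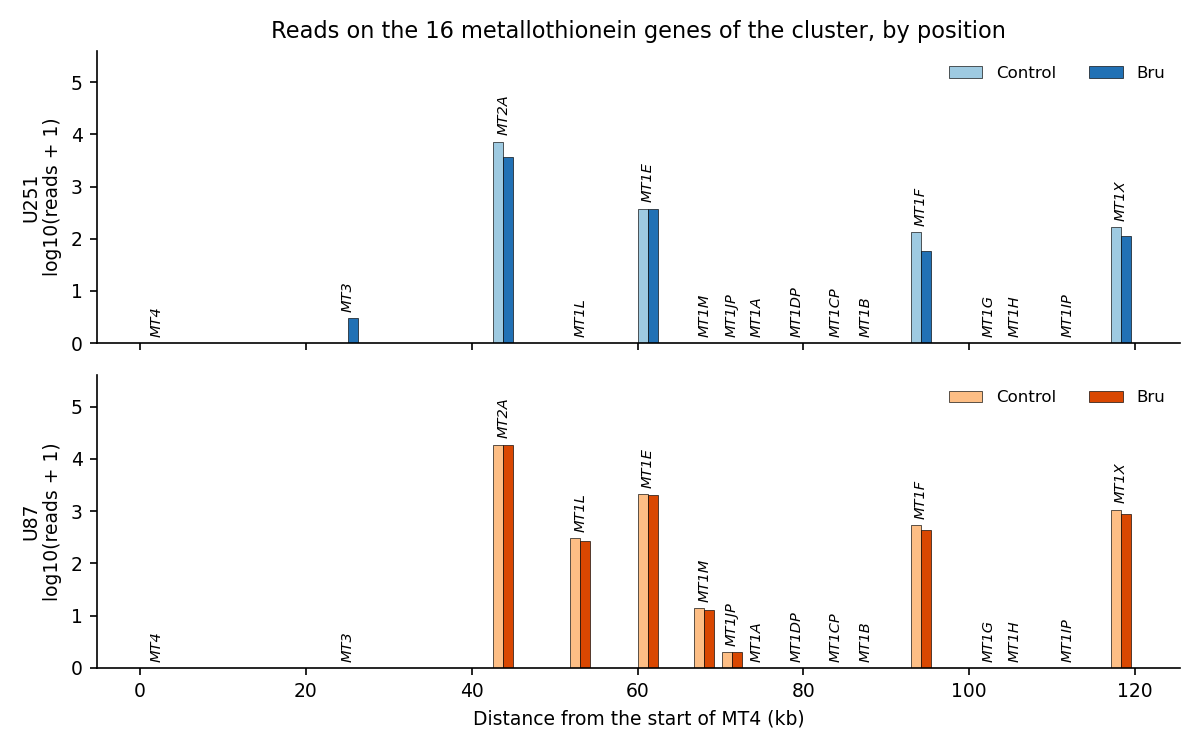
Reads of the 16 metallothionein genes and pseudogenes of the chromosome 16 cluster, as log10(reads + 1) on the vertical axis, against the distance in kb from the start of MT4, with Control and Bru bars side by side for U251 (upper panel) and U87 (lower panel). In both lines MT2A has the tallest bars, and MT1L and MT1M have reads in U87 and none in U251.

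MT2A (ENSG00000125148, chromosome 16, 56608199 to 56609497, plus strand), a metallothionein made in most tissues, was among the most abundant transcripts of both lines. Its level in U251 was 265 FPKM in Control and 155 in Bru, from 7232 and 3720 reads. In U87 it was 792 FPKM in Control and 830 in Bru, from 18592 and 18768 reads. Both U87 libraries were above both U251 libraries, and U251 Bru was the lowest of the 4. Ordered by FPKM, MT2A ranked 95 and 203 in U251 Control and Bru and 26 in both U87 libraries, among 24388 to 25464 genes with a read.

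MT1E (ENSG00000169715, chromosome 16, 56625475 to 56627112, plus strand), a metallothionein of the MT1 group, had 16.95 FPKM in Control and 18.8 in Bru of U251, against 110 and 112 in U87. The Control and Bru libraries of each line lay close together, and the 2 lines were far apart. MT1X (ENSG00000187193, chromosome 16, 56682424 to 56684196, plus strand) had 4.49 and 3.44 FPKM in Control and Bru of U251 and 33.2 and 28.6 FPKM in those of U87. MT1F (ENSG00000198417, chromosome 16, 56657694 to 56660698, plus strand) had 3.36 and 1.60 FPKM in U251 and 15.8 and 13.4 FPKM in U87. Both genes were higher in the U87 libraries than in the U251 libraries, and the lower value in each line was that of Bru.

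MT1M (ENSG00000205364, chromosome 16, 56632233 to 56633986, plus strand) was read in U87 alone, with 13 reads (0.764 FPKM) in Control and 12 reads (0.732 FPKM) in Bru. It had 0 reads in both U251 libraries, where 3 reads would be 0.152 and 0.172 FPKM. MTF1 (ENSG00000188786, chromosome 1, 37809567 to 37859620, minus strand), the zinc sensor, had 4.22 FPKM in Control and 5.43 in Bru of U251, and 4.28 and 4.16 FPKM in U87. The values other than that of U251 Bru lay near each other, and U251 Bru stood above them.

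**Figure D2:**
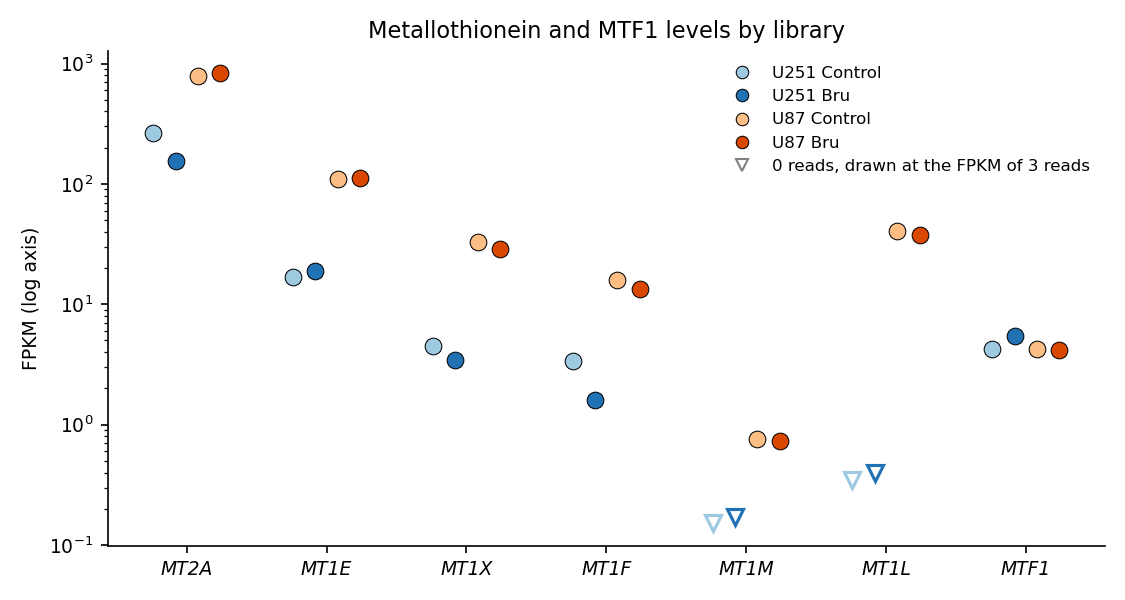
FPKM on a log axis of the members with at least 3 reads in a library and of the pseudogene MT1L, each point being 1 library, with U251 in blue and U87 in orange and the darker shade for Bru. Open triangles mark 0 reads and sit at the FPKM that 3 reads would give. The U87 points of MT2A, MT1E, MT1X and MT1F sit above the U251 points, and those of MTF1 do not separate the lines.

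The order of levels per length in U87 was MT2A, MT1E, MT1X, MT1F, MTF1 and MT1M in both libraries, and each neighbour in it differed beyond counting error. MT2A exceeded MT1E 7.17-fold (6.86 to 7.51) in U87 Control and 15.7-fold (14.1 to 17.4) in U251 Control. In U251 Control MT1X and MTF1 could not be told apart, with a ratio of 1.06 (0.894 to 1.26). The FPKM use the whole annotated exon length of a gene, which for MT1X is 1773 bases and for MT1F 1889 bases, while their longest coding transcripts have 538 and 690 bases. Per kilobase of the longest coding transcript, MT1X reached 14.8 and MT1F 9.19 FPKM in U251 Control, both above MTF1 at 4.25. On that scale MTF1 and MT1F could not be told apart in U251 Bru, with a ratio of 1.25 (0.952 to 1.67). The ratios between libraries of 1 gene do not depend on this length.

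The 9 metallothionein members together had 7906 reads in Control and 4258 in Bru of U251, and 22307 and 22161 reads in U87. MT2A made up 91.5% of these reads (90.8 to 92.1) in U251 Control and 87.4% (86.3 to 88.3) in U251 Bru. In U87 its share was 83.3% in Control and 84.7% in Bru. The share of MT1E was 4.73% (4.27 to 5.22) in U251 Control and 8.62% (7.79 to 9.50) in U251 Bru, with 374 and 367 reads of its own. In U87 the share of MT1E was 9.41% in Control and 9.28% in Bru. Thus the makeup of the family differed more between the U251 libraries than between the U87 libraries, and any statement on the sum is mainly one on MT2A.

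Sequence shared with other genes was limited in MT2A, MT1E and MT1F and larger in MT1X. Stretches were pooled over all transcripts of a gene, retained introns included, such as a transcript of 1727 bases for MT1X. Shares over the coding transcripts alone were not computed and may be larger. Stretches of 50 bases from GENCODE transcripts that also occur in another gene made up 3.02% of MT2A, 7.10% of MT1E, 1.22% of MT1F and 18.3% of MT1X. At 100 bases the shares were 0% for MT2A, MT1E and MT1F. For MT1X it was 11.3%, all of it with AC026461.1, a gene that overlaps MT1X on the same strand and had 0 reads. Fragments in that overlap, if left uncounted, would lower all 4 values of MT1X. MT1M shared 9.87% of its stretches of 50 bases with other genes and 0% of those of 100 bases. MT1G, which had 0 reads, shared 16.5% at 50 bases.

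The first comparison asks how the lines differ without Bru. MT2A was 2.98-fold higher (2.90 to 3.07) in U87 Control than in U251 Control. The ratio was larger for 3 of the MT1 genes, at 6.51-fold (5.83 to 7.29) for MT1E, 4.70-fold (3.88 to 5.73) for MT1F and 7.40-fold (6.28 to 8.76) for MT1X. All 4 intervals lie above 1, and those of the MT1 genes lie above that of MT2A. MTF1 had a ratio of 1.02 (0.910 to 1.13), so that the level of the regulator's own RNA was not seen to differ. All 4 metallothioneins passed 2-fold higher on log2(FPKM + 0.1), as did 14.5% of the 12949 genes. Genes at or above the log2 ratio of MT1X were 3.92% of all, and those at or above that of MT2A were 7.99%. For MT1M, with 13 reads in U87 Control against 0 in U251 Control, the ratio was 5.03 when 3 reads were set for U251, and the exact lower limit from the reads was 3.54-fold. With 1 library per line, fewer cells that express a gene and less of its RNA per cell cannot be told apart, here and below.

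The same order of the lines held in the Bru libraries. MT2A was 5.37-fold (5.19 to 5.57) higher in U87 Bru than in U251 Bru, MT1E 5.97-fold (5.34 to 6.69), MT1F 8.40-fold and MT1X 8.31-fold. MTF1 stood at 0.766-fold in this comparison. Summed over the 9 members, U87 exceeded U251 3.27-fold (3.19 to 3.36) in Control and 5.54-fold (5.36 to 5.73) in Bru. Without MT2A, the sums differed 6.40-fold (5.89 to 6.95) in Control and 6.72-fold (6.13 to 7.37) in Bru, and these intervals overlap.

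The pseudogene MT1L, annotated as transcribed and lying between MT2A and MT1E, had 304 reads in U87 Control, 268 in U87 Bru and 0 in both U251 libraries. Its levels in U87 were 40.9 and 37.5 FPKM. They are not ranked against those of MT1X and MT1F, because the order depends on the gene length used: per kilobase of the longest coding transcript, MT1X and MT1F reached 109 and 43.2 FPKM in U87 Control, and MT1L has 411 bases on either scale. From the exact lower limits of the ratio, it was at least 95.1-fold higher in U87 than in U251 in Control and at least 76.8-fold higher in Bru. MT1L shared 4.42% of its stretches of 50 bases with another gene and 0% of those of 100 bases. The other 12 genes and pseudogenes described as metallothioneins that are no members had at most 9 reads in any library, and 7 of them had 0 in all 4.

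Of the 6 expressed genes flanking the cluster, 5 were at a similar or lower level in U87 Control than in U251 Control, and NLRC5 was higher. The nearest expressed protein-coding gene before it, BBS2, which encodes a part of a ciliary complex, lies 44.8 kb away and had a log2 ratio of U87 Control to U251 Control of -0.07. The nearest after it, NUP93, a nuclear pore gene at 45.9 kb, had -0.19. OGFOD1 and NUDT21 further out had -0.20 and -0.57. Beyond NUP93, HERPUD1, an endoplasmic reticulum stress gene, had -1.14 and NLRC5, a regulator of MHC class I genes, had 1.24. NLRC5 was 2.45-fold (2.18 to 2.75) higher in U87 in Control and 1.60-fold (1.42 to 1.80) higher in Bru. On the same scale the 4 metallothioneins lay between 1.58 and 2.86, above all 6 flanking genes.

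**Figure D3:**
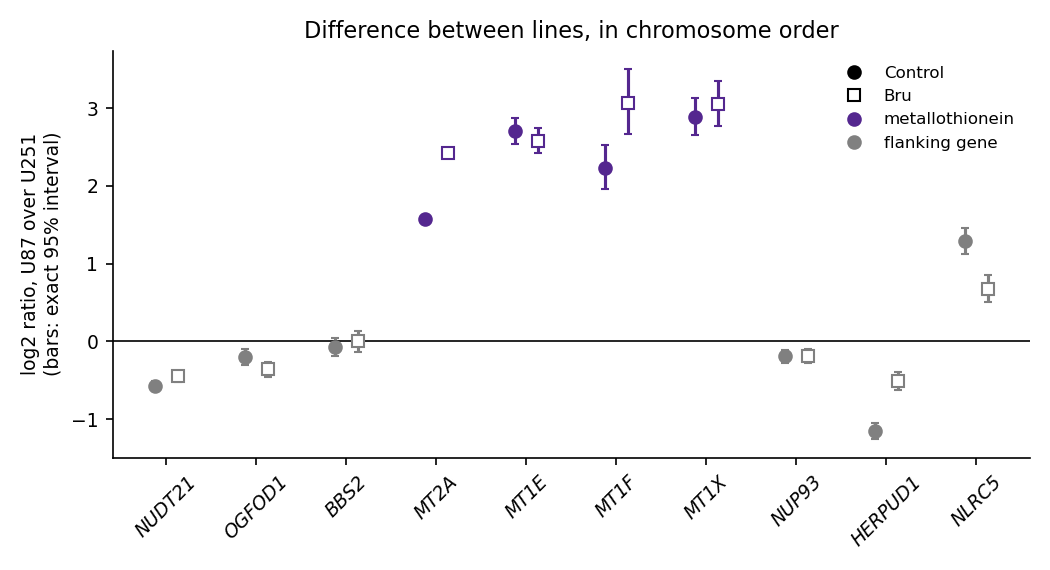
log2 ratio of U87 to U251 in the Control (filled circles) and Bru (open squares) libraries for the 4 metallothioneins past the filter (purple) and for 3 expressed genes on each side of the cluster (grey), in chromosome order, with exact 95% counting intervals. All metallothionein points lie above 1.5, and among the flanking genes only NLRC5 lies above 0 in Control.

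The second comparison asks what Bru did in each line. In U251, MT2A stood in the Bru library at 58.2% of its Control level, a log2 ratio of -0.78 (-0.84 to -0.72). MT1F had a log2 ratio of -1.02 on FPKM + 0.1, or -1.07 (-1.55 to -0.61) without the added 0.1, from 133 and 56 reads. MT1X had -0.38 with an interval of -0.74 to -0.032. MT1E went the other way, at 0.15, with an interval from -0.06 to 0.36 that includes 0. MTF1 was higher in U251 Bru, with 808 reads against 710 and a log2 ratio of 0.36 (0.22 to 0.51). Thus the metallothioneins of U251 did not shift together, since MT2A and MT1F were lower in Bru while MT1E was not. In the same libraries all 6 glial markers past the filter were lower in Bru, as were 6741 of all 12949 genes. PTPRZ1 and FABP7 among these markers passed the filter only through U251 Control. The part of the glial markers in these ratios was not tested.

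Set beside all genes, these differences were moderate. Only MT1F passed 2-fold in U251, where 5.44% of the 12949 genes were past 2-fold lower and 3.36% past 2-fold higher. MT1F lay just past that limit, and with a pseudocount of 1, median scaling, 75th percentile scaling, TPM or total reads as library size it fell short of it. Of all genes 9.63% had a log2 ratio at or below that of MT2A, 25.2% at or below that of MT1X, and 21.3% one at or above that of MTF1. The sum of the members had a log2 ratio of -0.71 (-0.77 to -0.66), and without MT2A it had -0.15 (-0.31 to 0.02).

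In U87 the ratios of the same genes were closer to 1. MT2A had a log2 ratio of 0.068 (0.038 to 0.097) and MT1E of 0.025 (-0.064 to 0.11). MT1F and MT1X had -0.23 (-0.42 to -0.05) and -0.22 (-0.35 to -0.09), from 539 and 442 reads and from 1064 and 882 reads. Both MT1F and MT1X were thus on the lower side in each line. MTF1 had -0.041 (-0.21 to 0.12) and MT1M -0.054, with a wide interval from -1.32 to 1.19. None of the 5 members past the filter passed 2-fold in U87, where 1.41% of all genes were past 2-fold lower and 1.92% past 2-fold higher. Genes at or beyond MT2A were 31.6% of all, and those at or beyond MT1F 22.1%. The sum of the members had a log2 ratio of 0.045 (0.018 to 0.071), which turned to -0.077 (-0.14 to -0.0093) without MT2A.

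**Figure D4:**
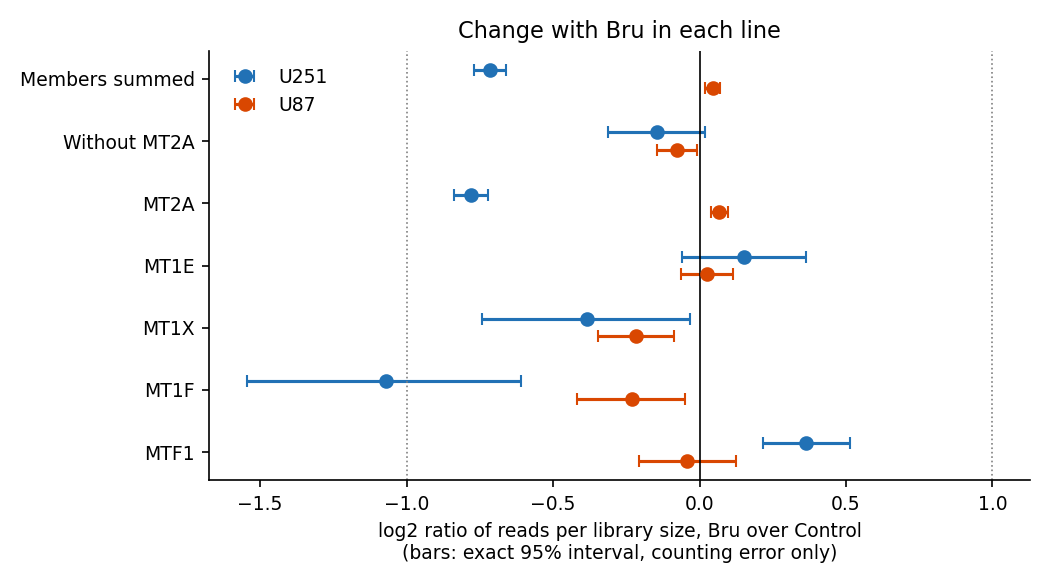
log2 ratio of Bru to Control, from reads per library size, for the members past the filter and for the sum of the 9 metallothioneins with and without MT2A, in U251 (blue) and U87 (orange), with exact 95% counting intervals; dotted lines mark 2-fold. The intervals of MT2A, MT1F, MTF1 and the sum, which is mainly MT2A, do not overlap between the lines. MT2A and the sum stand at -0.78 and -0.71 in U251 against 0.068 and 0.045 in U87.

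The response of the lines differed most for MT2A and MT1F. The log2 ratio of MT2A was larger in U87 by 0.85 (0.78 to 0.91), and that of MT1F by 0.84 (0.34 to 1.35). That of MTF1 was smaller in U87 by 0.41, as the difference of -0.41 had an interval from -0.63 to -0.18. For MT1E the difference was -0.13 (-0.36 to 0.10) and for MT1X 0.17 (-0.21 to 0.55), both with intervals that include 0. The sum of the members differed by 0.76 (0.70 to 0.82), but without MT2A by 0.07 (-0.11 to 0.25). These intervals hold the counting error of 4 libraries and no spread between cultures.

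Treating the lines as replicates of the Bru effect gave no call for any member. limma with the line as a term, which leaves 1 residual degree of freedom, called 0 of 12949 genes higher and 0 lower at an adjusted p under 0.05, 0% of all in each direction. An unadjusted p under 0.05 was found for 1835 genes, and 1 of these was a member, MT1F. The count of calls depended on the settings, since a pseudocount of 1 gave 7 genes higher and 13 lower, with 0 members among them. MT1F had the lowest p of the members, with an average log2 ratio of -0.63 (SE 0.23) and a limma adjusted p of 0.313, and it was lower in both lines. MT2A had -0.36 (SE 0.26) with a limma adjusted p of 0.555, and its 2 ratios had opposite signs. MT1X had -0.30 (SE 0.17, limma adjusted p = 0.455).

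Other genes of metal handling gave a background for the family. Zinc exporters of the SLC30 family had medians of the log2 ratio of Bru to Control of 0.19 (U251) and -0.14 (U87) over 6 genes past the filter, and none passed 2-fold. SLC30A1, which exports zinc through the plasma membrane and is a known target of MTF1, had 0.45 in U251 and -0.05 in U87. In U251 it was thus higher in Bru than in Control, as MTF1 was and MT2A was not. Zinc importers of the SLC39 family had medians of -0.21 and -0.04 over 9 genes, of which 8 were below 0 in each line and none passed 2-fold. Of all 12949 genes, 6741 were below 0 in U251 and 7337 in U87. SLC39A7, which releases zinc from the endoplasmic reticulum, had -0.63 and -0.35. Medians over all 12949 genes were -0.03 in U251 and -0.04 in U87, and those over the 4 metallothioneins -0.58 and -0.10.

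Genes of copper and iron handling mostly stayed within 2-fold. For the counts below, 3.36% of all 12949 genes were past 2-fold higher in U251 and 5.44% past 2-fold lower. The copper list had medians of 0.21 and -0.09 over 12 genes, with 1 gene past 2-fold in U251. That gene was COX19, a factor of cytochrome c oxidase assembly, with 1.53 in U251 and -0.05 in U87. Of 9 genes of iron storage and uptake, 2 were past 2-fold higher in U251, namely the ferritin chains FTL at 1.19 and FTH1 at 1.49, which had 0.59 and 0.77 in U87. NRF2 is the oxidant-sensing factor that Bru is known to inhibit, and 20 of its target genes had medians of 0.05 and 0.16, with 2 past 2-fold higher in U251 and none past 2-fold lower in either line. These were HMOX1, the heme-degrading enzyme, at 3.54 in U251 and 0.89 in U87, and OSGIN1, an oxidative stress gene, at 1.13 and 0.48. The list was mixed, as 12 of the 20 were above 0 and 8 below 0 in U251, and 14 and 6 in U87. Targets of the glucocorticoid receptor, which also acts on metallothionein genes, had medians of 0.00 and 0.14 over 9 genes. Among them TSC22D3, which encodes the glucocorticoid-induced leucine zipper, had 1.45 and 0.43. PER1 had 0.87 and 0.27, and KLF9 went the other way with -0.57 and -0.24.

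**Figure D5:**
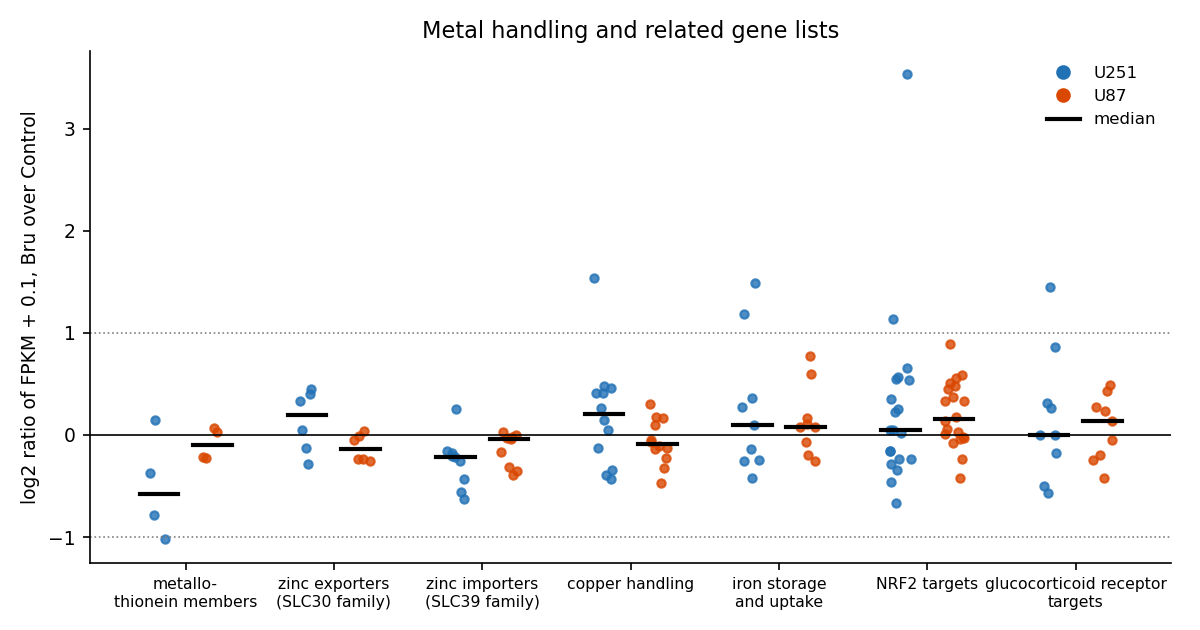
log2 ratio of FPKM + 0.1, Bru to Control, for the 4 metallothioneins past the filter and for the genes of 6 related lists, in U251 (blue) and U87 (orange), each point being 1 gene, with black bars at the medians and dotted lines at 2-fold. The metallothionein median is -0.58 in U251 and -0.10 in U87, and the ferritin chains are the 2 highest points of the iron list.

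The genes whose pattern was nearest to that of MT2A were sought among 10847 protein-coding genes past the filter, by the Euclidean distance over 3 log2 differences, namely Bru to Control in each line and U87 Control to U251 Control. They were MICB, a stress-induced ligand of a natural killer cell receptor, at a distance of 0.103, ETV4, an ETS transcription factor, at 0.145, and ANXA1, a phospholipid-binding annexin, at 0.158. ACTA2, smooth muscle actin, followed at 0.212 and IRX5, a homeobox factor, at 0.225. ANXA1 was the only one of the 5 at a level like that of MT2A, with 228 and 144 FPKM in Control and Bru of U251 and 675 and 660 FPKM in U87. The other 4 had at most 10.8 FPKM in any library. Since the distance uses 4 libraries, it describes likeness of pattern only.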

How the data were processed

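RNA of U251 and U87, Control and Bru, was sequenced in 4 libraries (paired-end, NEB Next Ultra kit). The authors deposited FPKM per gene with gene lengths. The submitters' processing notes name HISAT2 2.0.5, StringTie 1.3.3b, featureCounts 1.5.0-p3 and DESeq2 1.16.1, and the build hg18. All 58735 genes carry the coordinates of GENCODE release 29 (GRCh38), which were used here. How fragments matching several genes were treated is not given in the sources used here.

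Deposited FPKM times length gave whole reads for 100% of values (tolerance 0.01 reads), with library sizes of 17406238 to 20974002, a floor of 3 reads per gene and library, and 0.143 to 0.172 FPKM at that floor for a gene of 1 kb. Ratios were taken on log2(FPKM + 0.1) where the 4 libraries averaged 1 FPKM or more, with a 2-fold limit; an added value lessens the ratio of low genes. Intervals used the reads without it, and those of the difference between lines are conditional exact intervals of an odds ratio. limma 3.58.1 (trend, all 4 libraries, line as a term) with Benjamini-Hochberg adjustment is the only fit over libraries reported, since the deposited unit is FPKM and not counts. The line term pairs the libraries, as both conditions come from the same lines. Alternatives were other pseudocounts, filters and scalings.

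Named genes were the members, other metallothionein genes with 100 reads or more in a library, 3 expressed flanking genes per side, and the 5 genes nearest MT2A. MT1B and MT4 were named because their promoter windows were searched as well. Up to 3 genes per list with the largest absolute mean of the log2 ratios of both lines were also named, plus SLC30A1. VIM, CD44, SOX2, GFAP, S100B, OLIG2 and KRT18 were named from the marker lists after their values were seen. The members and lists were chosen with earlier results of these data known. Scripts were tested on simulated data (Python 3.11.15, R 4.3.3).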

Additional observations from a re-analysis of the deposited data

Results flagged for a closer look

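MT2A and MTF1 had log2 ratios of opposite sign in the 2 lines. For MT2A the Bru library stood at -0.78 against Control in U251 and at 0.068 in U87, with 1 library per condition, and the counting intervals of both exclude 0. For MTF1 the values were 0.36 in U251 and -0.041 in U87. The interval of the latter includes 0, and its sign turned under another scaling, with values from -0.046 to 0.015. Whether the lines differ beyond the spread between cultures was not tested for either gene, since no line has a second library of a condition.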

How the results depend on the processing

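The number of members past 2-fold in U251, which was 1 (MT1F), was 0 with a pseudocount of 1, with median scaling, with 75th percentile scaling, as TPM and with total reads as the library size. The summed log2 ratio of U251, -0.71, was -0.63 with 75th percentile scaling and with total reads, and -0.15 without MT2A. That of U87, 0.045, was 0.084 with median scaling, 0.10 with 75th percentile scaling and 0.087 with total reads, and it reversed to -0.077 without MT2A. The summed log2 ratio between the Control libraries, 1.71, was 1.64 as TPM and 2.68 without MT2A. MT2A ranged from -0.80 to -0.69 in U251 and from 0.063 to 0.13 in U87. Total reads as library size, and MT1E counted with MT1L, were chosen after seeing the data. No scaling shifted a log2 ratio by 0.1 or more.

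In the fit over both lines, 0 members were called under each alternative run, including no replicate block, the fit without the pairing by cell line, where 83 genes had an unadjusted p under 0.05 against 1835 with it. Over all genes limma called 0, and with a pseudocount of 1 it called 7 higher and 13 lower. The planned count models, edgeR and DESeq2 on recovered reads, were tried once. Both called genes in each direction where limma called none, and no member was among them. Their counts are not reported, because the deposited unit is FPKM and not counts. Leaving out a library left no residual degree of freedom and gave no value. Depth limits MT1M, MT3 and the genes at 0 reads.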
